A study of Rattus norvegicus and Mus musculus with 18 samples.

Results

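Nephronectin, the integrin alpha8 beta1 that binds it, and the Fraser complex were followed across the tissues of the embryonic kidney through 7 genes, Npnt, Itga8, Itgb1, Fras1, Frem2, Frem1 and Grip1. Their probe sets, the groups of short oligonucleotides that each give 1 intensity, were taken where the platform annotation named exactly 1 of these symbols. All 7 genes, of 19342 named in this way on the 4 designs, were represented, by 24 of 71239 probe sets, 19 of 45037 on the mouse array, 3 of 8740 on the first rat array, 2 of 8732 on rat array B and 0 of 8730 on rat array C. On the mouse array Itgb1 had 6 probe sets, Npnt 5, Itga8, Fras1 and Grip1 2 each, and Frem1 and Frem2 1 each. In rat, Itga8 had 1 probe set on each of the first array and array B, Itgb1 and Grip1 had 1 each on the first array, and Fras1 had 1 on array B.

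RNA came from mouse embryos at E12.5, divided into ureteric bud tips (about 1000 pieces), ureteric bud stalks (about 350) and metanephric mesenchyme (about 300), and from rat embryos at E13.5, divided into whole ureteric buds (about 1200) and metanephric mesenchyme (about 240). No treatment, strain, genotype or sex is given in the sources used here. All kidneys were exposed to trypsin and DNase for 10 minutes so that the tissues could be separated. Each tissue was a single pool of RNA whose labelling was done in 2 replicates, hybridised to 1 mouse design or to 3 rat designs, 18 arrays in all, so the spread between the 2 arrays of a tissue is technical, and every p-value here measures only that spread and not the spread between embryos. Precision is limited by having 2 arrays per tissue.

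The kidney forms when the ureteric bud, an epithelial tube, grows into the metanephric mesenchyme and branches. Nephronectin is a matrix protein that the bud lays into its basement membrane, and mesenchymal cells bind it through integrin alpha8 beta1, the product of Itga8 and Itgb1. In mouse, loss of nephronectin or of the alpha8 subunit impairs the expression of Gdnf, the mesenchymal growth factor that draws out the bud, and kidneys are small or absent. Fras1, Frem1 and Frem2 encode large matrix proteins that assemble with one another in the basement membrane, and Grip1 encodes the scaffold protein that carries Fras1 and Frem2 to the basal cell surface. Mutations of these 4 genes cause Fraser syndrome or related malformations in human and blistering mutants in mouse, with missing kidneys among the defects.

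The dissected pools were checked by cell type markers, on intensities quantile normalised within each table, the scale used for every level below. The summed intensity of 8 bud epithelium markers was 18790 to 19020 in tips, 9435 to 9635 in stalks and 455 to 461 in mesenchyme. Calb1 alone averaged 9563 in tips and 4339 in stalks. Of the 7 tested markers 3, Calb1, Ret and Wnt11, were called higher in tips than in stalks. The others, Gata3 (log2 1.00), Cdh1 (log2 0.54), Wnt9b (log2 0.53) and Krt8 (log2 0.38), were also higher in tips but were not called. Of these Gata3 fell just short of 2-fold. The sum does not measure the epithelial share of the stalk pool, and that share was not tested. The summed intensity of 5 stromal markers was 344 to 482 in tips, 5466 to 5562 in stalks and 5004 to 5006 in mesenchyme, and that of 5 nephron progenitor markers was 558 to 616, 1091 to 1094 and 4421 to 4506 in the same order. Ureteric mesenchyme and smooth muscle markers (4 genes) summed to 394 to 396 in tips, 2381 to 2462 in stalks and 1850 to 1851 in mesenchyme. Within the stromal list Foxd1 was called lower in stalks than in mesenchyme (means of 861 and 1906, log2 -1.13), Postn (log2 1.34) and Lum (log2 1.29) were called higher, and the other two were not called. The sums were 517 to 530 in tips, 1256 to 1318 in stalks and 1969 to 2040 in mesenchyme for 6 endothelial markers. For 3 erythroid markers they were 1435 to 1473 in tips, 4101 to 4147 in stalks and 8525 to 8583 in mesenchyme, and for 3 macrophage markers 160 to 214 in tips, 375 to 391 in stalks and 596 to 602 in mesenchyme. On the first rat array 5 bud epithelium markers summed to 2494 to 2761 in buds and 697 to 712.5 in mesenchyme. There 5 stromal markers summed to 503 to 565 in buds and 2358 to 2700 in mesenchyme, and 2 nephron progenitor markers to 352.5 to 382 and 814 to 885. A difference in a bulk pool does not tell fewer cells of a type from less RNA per cell. Repeat arrays correlated across probe sets at r = 0.981 to 0.998. The second bud array of each rat design had a 3' to 5' signal ratio of 4.26 to 5.28 for the Gapdh control, against 1.25 to 1.47 on the other rat arrays, and the rat differences of tested genes named below are also given without it.

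Testing with limma took in a probe set if any tissue mean was at or above the median intensity of its table. This limit was 49.3 in mouse, 111 on the first rat array, 118 on array B and 115 on array C. A call required an adjusted p under 0.05 (Benjamini-Hochberg, over all tested probe sets of the table) and a difference of at least 2-fold on the scale of log2(intensity + 16), which understates the change of weak signals. Among the 19 mouse probe sets 15 were tested, and the other 4, of Itgb1 and Fras1, stayed below the limit in all 3 tissues. In tips against mesenchyme 8 of the 15 were called, 5 higher in tips and 3 lower, where 8.15% of all 23971 tested probe sets were called, 3.89% higher and 4.26% lower. In tips against stalks 6 were called, 3 higher in tips and 3 lower, against 4.58% of all tested, 0.951% higher and 3.63% lower. In stalks against mesenchyme 3 were called, all higher in stalks, against 2.77% of all tested, 2.34% higher and 0.426% lower. For the mean of tips and stalks minus mesenchyme, the mouse contrast nearest to whole buds, 7 were called, 5 higher and 2 lower, against 4.64% of all tested, 2.87% higher and 1.76% lower. Several of these probe sets target 1 gene, so the counts are not independent.

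**Figure D1:**
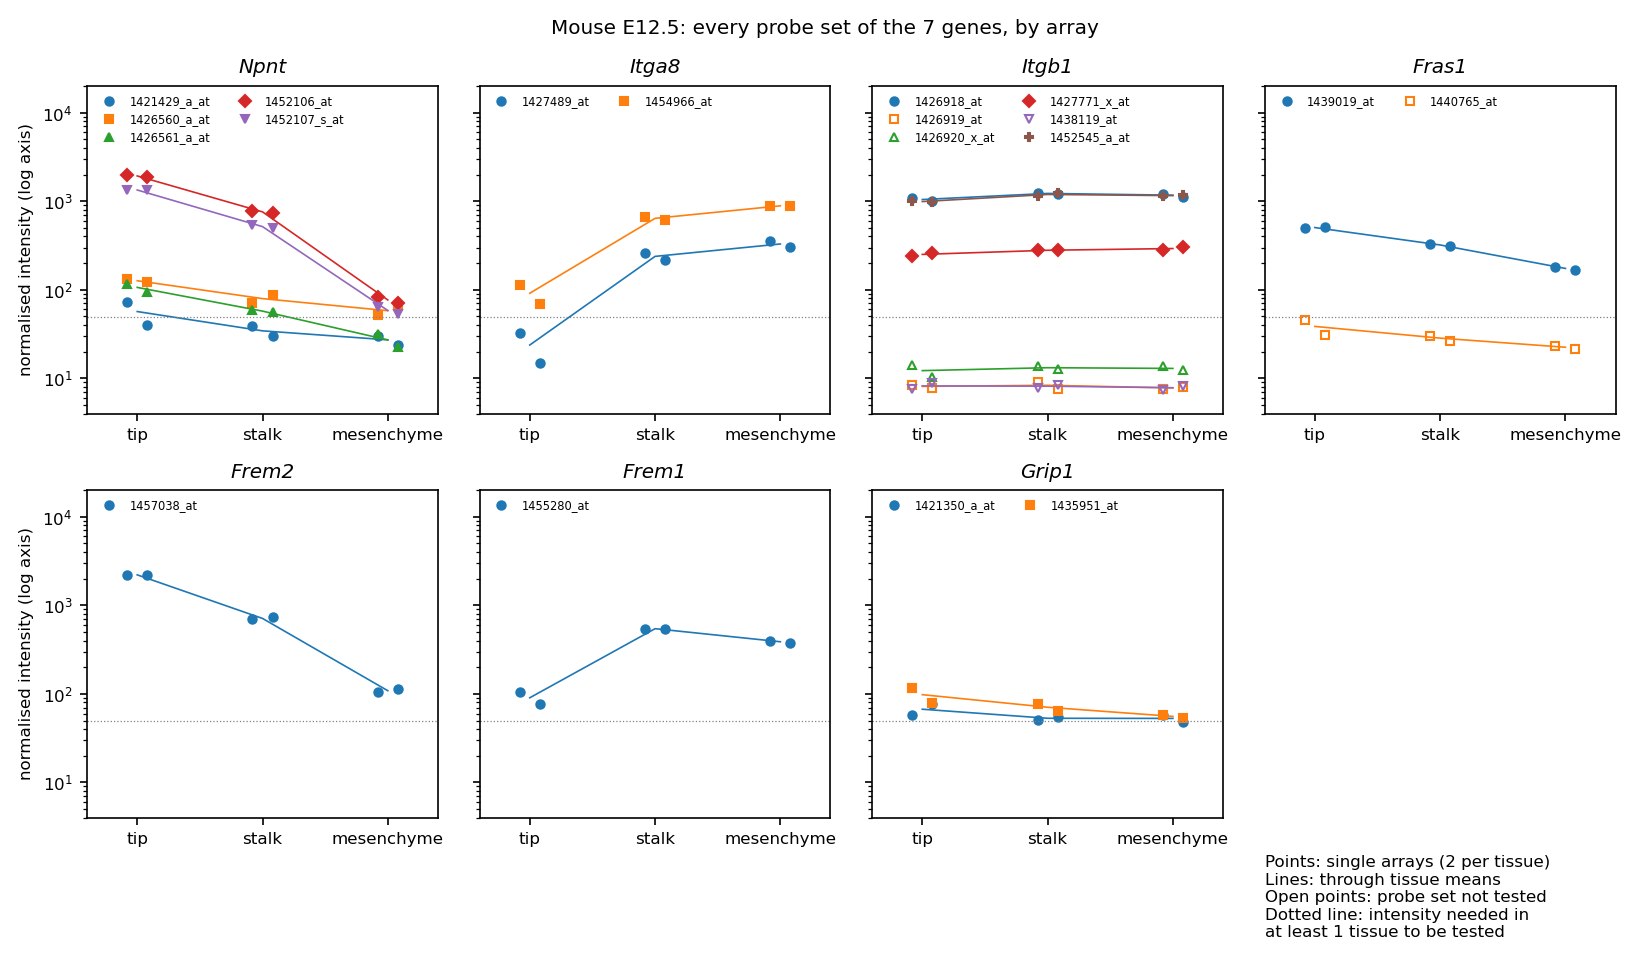
Normalised intensity (log axis) of all 19 mouse probe sets of the 7 genes in tip, stalk and mesenchyme; points are the 2 arrays of a tissue, lines join the tissue means and open points mark probe sets that were not tested. Npnt, Fras1 and Frem2 descend from tip to mesenchyme, Itga8 and Frem1 are lowest in tips, and Itgb1 is nearly level.

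Sequences upstream of Npnt, Frem2 and Itga8 are shown. In mouse the first 2 genes were highest in the bud tip and the third was highest in the mesenchyme. The rat arrays had no probe set for Npnt or Frem2. The sequences are from rat (RefSeq, build GRCr8), on the minus strand, written 5' to 3', and cover up to 250 bases before the transcript start. The Npnt stretch was shortened to the 118 bases that lie outside the annotated gene. Capitals mark matches on either strand to the GC box GGGCGG or the CCAAT box CCAAT, 2 common promoter motifs. The stretches lie at chr2:224133568-224133685 for Npnt, chr2:139891047-139891296 for Frem2 and chr17:80410634-80410883 for Itga8.
Npnt: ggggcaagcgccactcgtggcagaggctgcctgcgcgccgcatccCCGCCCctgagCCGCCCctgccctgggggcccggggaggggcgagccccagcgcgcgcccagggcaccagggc
Frem2: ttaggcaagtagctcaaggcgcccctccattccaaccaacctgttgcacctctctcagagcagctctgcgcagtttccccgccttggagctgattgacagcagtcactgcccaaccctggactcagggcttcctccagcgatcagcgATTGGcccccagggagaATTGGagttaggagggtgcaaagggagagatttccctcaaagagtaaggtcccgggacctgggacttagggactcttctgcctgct
Itga8: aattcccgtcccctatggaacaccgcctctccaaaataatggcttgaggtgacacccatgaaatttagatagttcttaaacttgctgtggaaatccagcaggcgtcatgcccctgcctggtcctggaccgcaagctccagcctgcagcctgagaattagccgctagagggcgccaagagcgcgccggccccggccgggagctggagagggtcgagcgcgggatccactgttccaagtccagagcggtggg
Over the full 250 bases the Npnt window was 84% G or C, more than 99.8% of 33469 such rat windows, whose median was 51.2%. It held 6 GC boxes, 2 of them in the printed bases. The unprinted bases of that window lie within the annotated gene. The share of G or C was 57.6% for Frem2 and 59.6% for Itga8. The Frem2 window held 2 CCAAT boxes and the Itga8 window held neither motif. At least 1 GC box occurred in 30.5% and at least 1 CCAAT box in 34% of all windows, and no printed match overlapped one of the other motif. The GATA factor motif AGATAA, found in 10.3% of windows, did not occur in these 3. The same held for the TATA box TATAAA, found in 12.9%. A match is a description of the letters and not a bound site.

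Npnt encodes the ligand. Its strongest probe set, 1452106_at, read 1961 and 1899 in tips, 775 and 741 in stalks, and 82.2 and 71.2 in mesenchyme. Tips were highest, stalks intermediate and mesenchyme lowest, and no array of one tissue overlapped those of another. The log2 difference was 4.39 for tips minus mesenchyme (SE 0.07, limma adjusted p = 1.28e-09), 1.33 for tips minus stalks (SE 0.07, adjusted p = 2.67e-06) and 3.06 for stalks minus mesenchyme (SE 0.07, adjusted p = 3.56e-08). As plain ratios of mean intensity, without the added 16, these were 25.2, 2.55 and 9.88. In mesenchyme this probe set still lay above 58.7% of all mouse probe sets, and in tips above 97.2%.

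The 5 Npnt probe sets ranked the tissues in the same order, and they disagreed in size. Probe set 1452107_s_at, whose suffix marks a design that may also match related transcripts, read 1333 and 1346 in tips, 534 and 499 in stalks, and 63.2 and 53.5 in mesenchyme. Its log2 differences of 4.19, 1.35 and 2.84 for tips minus mesenchyme, tips minus stalks and stalks minus mesenchyme were all called. The other 3 read above only 52.6% to 67.3% of all mouse probe sets in tips. Probe set 1426561_a_at read 117 and 95.3 in tips, 58.6 and 56.1 in stalks, and 31.5 and 22.7 in mesenchyme, and only its difference between tips and mesenchyme was called among these 3 pairs (log2 1.51, SE 0.16, adjusted p = 9.45e-05). Probe set 1426560_a_at read 132 and 121 in tips, 70.7 and 88.2 in stalks, and 51.3 and 64.8 in mesenchyme. Its tip minus mesenchyme difference of 0.95 (95% interval 0.60 to 1.30) was under 2-fold. Probe set 1421429_a_at read 73.3 and 40.2 in tips, 38.8 and 29.9 in stalks, and 30.3 and 24.1 in mesenchyme, and its tip minus mesenchyme difference was 0.72 (95% interval 0.22 to 1.22).

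Tip arrays lay above mesenchyme arrays without overlap in all 5 probe sets, and the ratio of mean intensities in tips to mesenchyme was 25.2 and 23.0 in the strong pair against 2.09 to 3.92 in the weak ones. Probe set 1421429_a_at passed the limit for testing through tips alone (means of 56.8 in tips, 34.4 in stalks and 27.2 in mesenchyme). It is therefore no separate support for higher values in tips. The mesenchyme mean of 1426561_a_at, 27.1, also lay below the limit. The annotation assigns 4 of the 5, both strong ones included, to the same GenBank record, so probe sets of that record were found on both sides. Leaving out the second tip array raised the difference to 1.03 for 1426560_a_at and to 1.07 for 1421429_a_at, both then called, and leaving out the second mesenchyme array gave 1.10 for 1426560_a_at, also called. With 64 added in place of 16 the call of 1426561_a_at ended at 0.90, while the differences of 1452106_at and 1452107_s_at were 3.83 and 3.52.

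Itga8 encodes the alpha subunit of the receptor. Probe set 1454966_at read 113 and 69.3 in tips, 668 and 613 in stalks, and 889 and 884 in mesenchyme. Tips were far below both other tissues, and stalk arrays lay below mesenchyme arrays without overlap. The log2 difference was -3.10 for tips minus mesenchyme (SE 0.16, limma adjusted p = 1.02e-06) and -2.64 for tips minus stalks (SE 0.16, adjusted p = 5.69e-06). Stalks minus mesenchyme was -0.46 (95% interval -0.83 to -0.09, adjusted p = 0.108) and was not called. The second probe set, 1427489_at, read 32.5 and 15.0 in tips, 258 and 219 in stalks, and 353 and 305 in mesenchyme. Its differences of -3.15, -2.71 and -0.44 for tips minus mesenchyme, tips minus stalks and stalks minus mesenchyme followed those of the first, but its tip mean lay below the limit for testing, which it passed through the other tissues.

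In stalks the mean Itga8 intensity was 0.722 of that in mesenchyme by 1454966_at and 0.724 by 1427489_at. Beside it stand the marker sums given above. Nephron progenitor markers were lower in stalks than in mesenchyme, 4 of 5 of them called, and of the stromal markers 1 of 5 was called lower and 2 higher. The endothelial, erythroid and macrophage sums ran in the same tissue order as Itga8, lowest in tips and highest in mesenchyme. In tips against mesenchyme 6 of 6 endothelial, 3 of 3 erythroid and 2 of 3 macrophage markers were called lower, and in stalks against mesenchyme 0, 1 and 0 were. Of all tested probe sets 4.26% were called lower in tips than in mesenchyme. In stalks against mesenchyme 0.426% were called lower and 2.34% higher. The first tip array read higher than the second for both Itga8 probe sets. The stromal sums of the tip arrays were 344 at the lowest and 482 at the highest, and which array gave which is not told here. The part of any of these cell types in the Itga8 values was not tested.

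Itgb1 encodes the beta1 subunit, the partner of many alpha subunits in nearly all cells. Probe set 1426918_at read 1089 and 1000 in tips, 1248 and 1200 in stalks, and 1218 and 1123 in mesenchyme. Tip arrays lay lowest, and stalk and mesenchyme arrays overlapped. Probe set 1452545_a_at read 1008 and 974 in tips, 1148 and 1236 in stalks, and 1136 and 1176 in mesenchyme, and 1427771_x_at read 242 and 259 in tips, 278 and 280 in stalks, and 283 and 301 in mesenchyme. No Itgb1 difference reached 2-fold. Tips minus stalks was -0.23 by 1426918_at (95% interval -0.36 to -0.09, limma adjusted p = 0.0208) and -0.26 by 1452545_a_at (95% interval -0.38 to -0.14, adjusted p = 0.00542), and both passed the adjusted p alone. Over the alternatives the adjusted p reached 0.161 for 1426918_at and 0.0708 for 1452545_a_at. By 1427771_x_at, whose suffix marks probes that may cross-hybridise, it was -0.15 (95% interval -0.33 to 0.04, adjusted p = 0.218). Stalks minus mesenchyme lay between -0.06 and 0.06 in the 3 probe sets, with intervals that stayed within -0.24 and 0.20. The remaining 3 probe sets, 1426919_at, 1426920_x_at and 1438119_at, were not tested. Their array values ran from 7.40 to 14.1 in all tissues, and 2 of them share a GenBank record with 1426918_at.

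Fras1 and Frem2 encode membrane-anchored members of the Fraser complex. Frem2, by its single probe set 1457038_at, read 2201 and 2216 in tips, 693 and 730 in stalks, and 104 and 113 in mesenchyme. The 3 tissues were well apart, in the order also seen for Npnt. The log2 difference was 4.16 for tips minus mesenchyme (SE 0.06, limma adjusted p = 7.53e-10), 1.61 for tips minus stalks (SE 0.06, adjusted p = 3.1e-07) and 2.55 for stalks minus mesenchyme (SE 0.06, adjusted p = 3.59e-08).

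Fras1, by probe set 1439019_at, read 502 and 506 in tips, 329 and 312 in stalks, and 179 and 169 in mesenchyme. The order was again tips, stalks, mesenchyme without overlap. Tips minus mesenchyme was called at a log2 difference of 1.45 (SE 0.07, limma adjusted p = 9.41e-07). Tips minus stalks was 0.63 (95% interval 0.46 to 0.80) and stalks minus mesenchyme 0.82 (95% interval 0.65 to 0.99), which passed the adjusted p (0.000322 and 0.000104) and stayed under 2-fold. Of all tested probe sets 28.5% and 13.1% passed the adjusted p alone in these 2 comparisons. The second Fras1 probe set, 1440765_at, read 46.0 and 31.0 in tips, 30.3 and 26.5 in stalks, and 23.3 and 21.6 in mesenchyme, and was not tested because no tissue mean reached 49.3.

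Frem1 encodes a member of the complex without a membrane anchor that in mouse skin is made by dermal cells. Its probe set 1455280_at read 104 and 76.3 in tips, 543 and 547 in stalks, and 401 and 375 in mesenchyme. Tips were lowest and stalks highest, with no overlap. The log2 difference was -2.41 for tips minus stalks (SE 0.12, limma adjusted p = 1.78e-06) and -1.94 for tips minus mesenchyme (SE 0.12, adjusted p = 3.27e-06). Stalks minus mesenchyme was 0.47 (95% interval 0.20 to 0.75, adjusted p = 0.0345), under 2-fold, and over the alternatives this adjusted p ran from 0.00115 to 0.206. Beside it, the ureteric mesenchyme and smooth muscle markers had a higher sum in stalks than in mesenchyme, with 1 of 4 called higher and a median difference of -0.47, so that sum and median differ in sign. Of the stromal markers 2 of 5 were called higher in stalks and 1 lower. Whether these cells carry the Frem1 signal of the stalk pool was not tested.

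Grip1 encodes the scaffold protein. Probe set 1435951_at read 116.5 and 79.4 in tips, 77.0 and 64.3 in stalks, and 57.3 and 54.1 in mesenchyme. Tips lay above the other tissues, and the 2 tip arrays differed more than those of any other tissue. Tips minus mesenchyme was 0.65 (95% interval 0.25 to 1.05, limma adjusted p = 0.0204), under 2-fold, and tips minus stalks was 0.38 (adjusted p = 0.15). Without the first tip array tips minus mesenchyme was 0.41 (adjusted p = 0.0573), and without a mesenchyme array its adjusted p was 0.0798 or 0.104. With 1 array left out, tips minus stalks ran between 0.14 and 0.63. Probe set 1421350_a_at read 58.1 and 76.1 in tips, 51.2 and 54.8 in stalks, and 57.3 and 48.4 in mesenchyme, and none of its differences passed the adjusted p (tips minus mesenchyme 0.27, 95% interval -0.09 to 0.62).

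**Figure D2:**
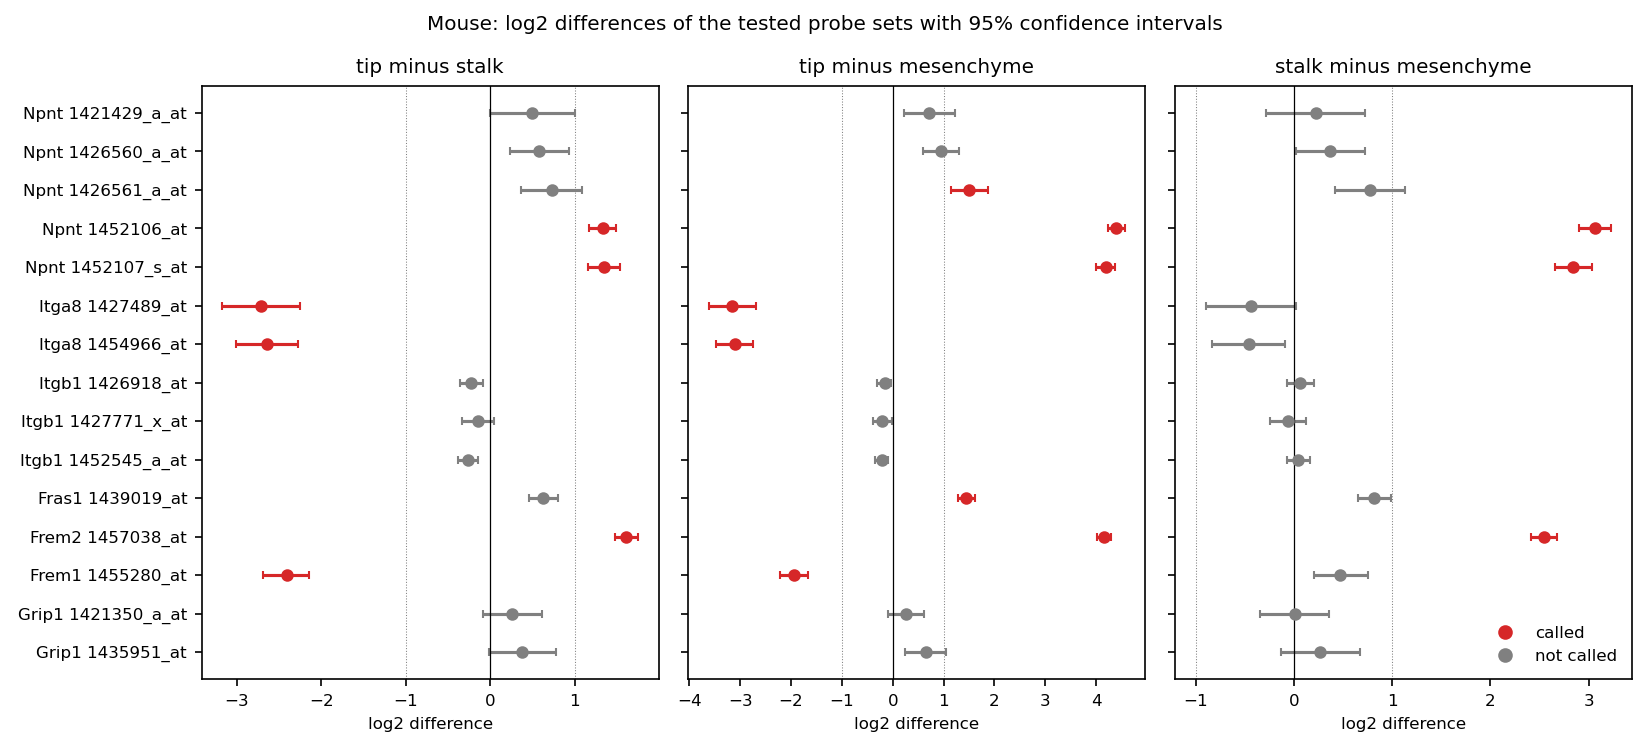
Log2 differences (points) with 95% confidence intervals (bars) of the 15 tested mouse probe sets in tips minus stalks, tips minus mesenchyme and stalks minus mesenchyme; dotted lines mark a 2-fold difference and red marks called probe sets. The 2 strong Npnt probe sets and Frem2 are called in all 3 panels, while Itga8 and Frem1 are called lower in tips and are not called between stalks and mesenchyme.

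The comparisons with tips share the tip arrays, so the patterns of a gene across them are not independent. Side by side, Npnt (1452106_at, 1452107_s_at) and Frem2 were called higher in tips than in stalks and higher in stalks than in mesenchyme. Fras1 was called in tips against mesenchyme and lay between, at less than 2-fold, in stalks. Itga8 and Frem1 were called lower in tips than in each other tissue. Thus the transcripts of 2 of the 3 matrix proteins of the Fraser complex, Fras1 and Frem2, were higher in tips than in mesenchyme, and that of Frem1 was lower.

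For each of the 5 genes called in at least 1 of these comparisons, the 3 genes with the most similar profile were found among 12361 other tested genes, as the Euclidean distance between log2 profiles over the 6 mouse arrays, each centred on its mean. For Npnt they were Aldh1a3, a retinoic acid synthesis enzyme (distance 0.30), the potassium channel Kcnk1 (0.36) and the transcription factor Sim1 (0.39), where the median gene lay at 4.53. For Frem2 they were the arginase Arg2 (0.44), Sim1 (0.45) and Lratd2 (0.53). Sim1, near both, had mean intensities of 955 in tips, 311 in stalks and 28.5 in mesenchyme. For Itga8 they were the membrane adaptor Pag1 (0.26), the kinesin family member Kif26b (0.29) and the patterning gene Hoxa10 (0.34). Kif26b averaged 64.3 in tips, 429 in stalks and 561 in mesenchyme. For Frem1 they were the transcription factor Egr3 (0.14), Dpysl4 (0.18) and the matrix Gla protein gene Mgp (0.21), and for Fras1 they were Prr5l (0.05), the actin regulator Cyfip2 (0.07) and the receptor phosphatase Ptprf (0.13). The distances describe these 6 arrays, and smaller differences between tissues give smaller distances.

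Other genes of the pathway were taken from lists by role, with the strongest probe set for each gene, and the text names the called members with the largest tip minus mesenchyme difference, or the largest in the comparison told. Genes of these lists named outside that rule in mouse were chosen after their values were seen. These are Fn1, Tnc, Tgfb1, Fermt2, Gdnf and Gfra1. Of 6 other matrix ligands of integrin alpha8 beta1, 5 were on the mouse array and 4 were tested, and 0 were called by limma in each of tips against stalks, tips against mesenchyme and stalks against mesenchyme. At an unadjusted p under 0.05 there were 2, 3 and 2 of them, where 38.8%, 41.6% and 25.2% of all tested probe sets had one. The list median was -0.74 for tips minus mesenchyme, where all tested probe sets had a median of 0.01. Tnc and Tgfb1, the middle genes of that ranking, had tip means of 25.1 and 43.1, below the limit for testing. Tnc passed that limit through mesenchyme alone (mean of 51.4), so it is no separate support for lower values in tips. Fibronectin (Fn1) had mean intensities of 1043 in tips, 2077 in stalks and 1979 in mesenchyme, and its tip minus mesenchyme difference of -0.91 passed the adjusted p (6.76e-07) but not 2-fold.

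Among 6 tested alpha subunits that can pair with beta1, other than Itga8, 2 were called higher in tips than in mesenchyme and 1 lower. The list median was 0.12, and 3.89% of all tested probe sets were called higher and 4.26% lower. The laminin-binding subunits Itga3 and Itga6 were the higher ones. Itga3 had means of 442 in tips and 114 in mesenchyme (log2 1.82, limma adjusted p = 1.06e-06), and Itga6 had 647 in tips and 293 in mesenchyme (log2 1.10, adjusted p = 2.43e-06). Itga9, a receptor for tenascin, was the lower one, with 67.4 in tips and 292 in mesenchyme (log2 -1.89, adjusted p = 1.64e-06). In stalks against mesenchyme 0 alpha subunits of the list were called by limma, and 5 had an unadjusted p under 0.05, against 25.2% of all tested probe sets. Among 3 tested beta subunits other than Itgb1, 0 were called by limma in each of the 3 mouse comparisons, and 0, 0 and 1 had an unadjusted p under 0.05 in tips against stalks, tips against mesenchyme and stalks against mesenchyme.

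Of the adaptors and kinases that link integrins to the cytoskeleton, 13 were tested and 0 were called by limma in each of these 3 comparisons. Without the 2-fold limit, 1 was higher and 8 were lower in tips than in stalks by adjusted p, where 28.5% of all tested probe sets passed, and 10 had an unadjusted p under 0.05, against 38.8% of all tested. The list median for tips minus stalks was -0.22, against 0.06 for all tested probe sets. The kindlin Fermt2, an integrin activator, averaged 758 in tips, against 1259 in stalks, a log2 difference of -0.72 (limma adjusted p = 9.06e-06) that was under 2-fold.

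Of 7 relatives and interactors of the Fraser complex, 5 were tested, and 1 was called higher and 0 lower in tips against mesenchyme. For all tested probe sets the shares were 3.89% higher and 4.26% lower. Vwa2, which encodes AMACO, a basement membrane protein that binds the complex in mouse, was called higher in tips and in stalks than in mesenchyme, with means of 305 in tips, 202 in stalks and 24.1 in mesenchyme. Its log2 difference was 2.99 for tips minus mesenchyme (limma adjusted p = 2.75e-07) and 2.44 for stalks minus mesenchyme (adjusted p = 3.33e-06). Fbln1, the matrix protein fibulin-1, was called lower in tips than in stalks, with 777 in tips, against 1818 in stalks, a log2 difference of -1.21 (limma adjusted p = 3.4e-07).

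On the list of Gdnf axis genes and mesenchyme regulators, 11 of 14 were tested, 2 called higher in tips than in mesenchyme and 8 lower. The list median was -2.51, and 3.89% of all tested probe sets were called higher and 4.26% lower. Ret, Gdnf and Eya1 of this list also stand on the marker lists above. Ret and its co-receptor Gfra1, which receive Gdnf on the bud, were the higher ones (log2 5.29 and 2.16). Eya1, an activator of mesenchymal genes, was lower in tips than in mesenchyme by a log2 difference of -4.08, Hoxa11 by -2.89 and Kif26b by -2.87. Gdnf had means of 70.5 in tips, 145 in stalks and 411 in mesenchyme, and was called lower than in mesenchyme both in tips (log2 -2.31, limma adjusted p = 4.9e-07) and in stalks (log2 -1.41, limma adjusted p = 3.61e-05).

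**Figure D3:**
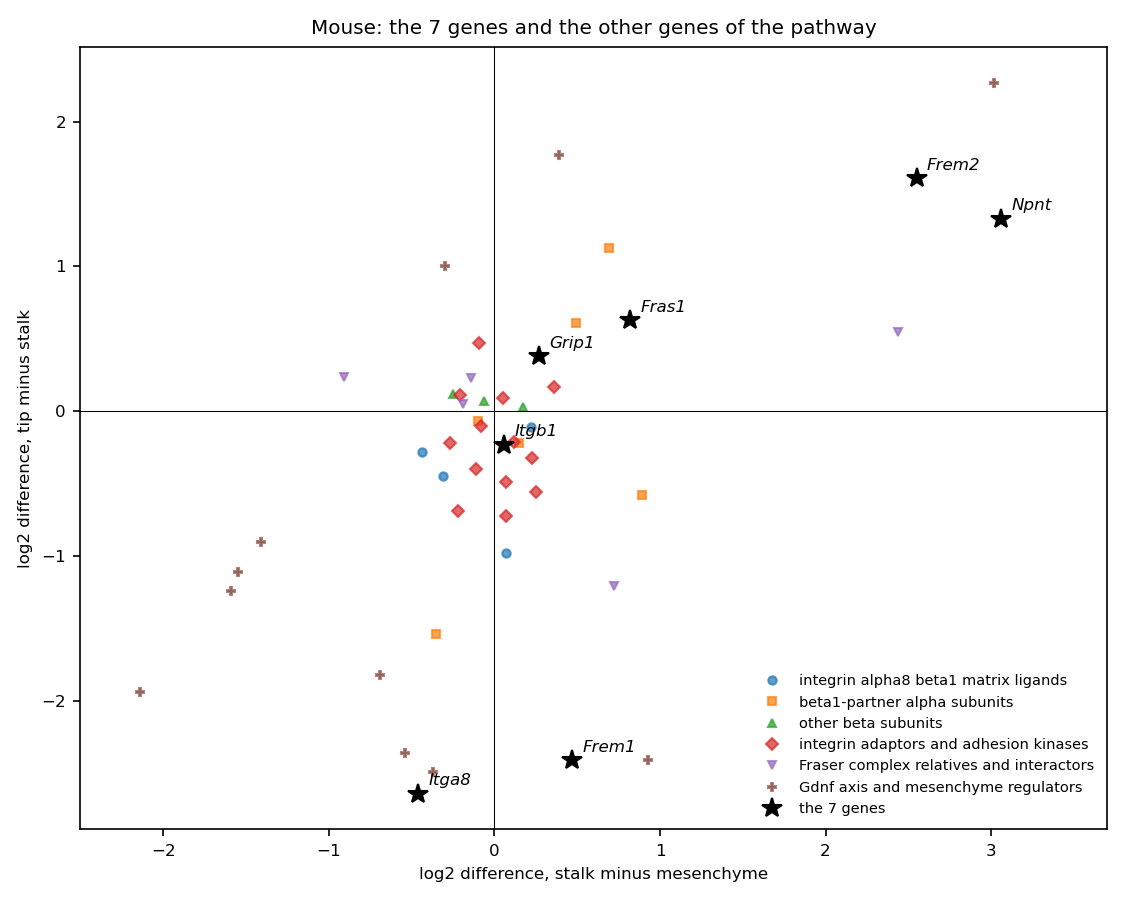
Log2 difference of stalks minus mesenchyme (horizontal) against that of tips minus stalks (vertical) for the strongest probe set of each of the 7 genes (stars) and for the tested genes of the lists by role (small symbols) in mouse. Npnt and Frem2 lie at upper right (3.06 and 1.33, 2.55 and 1.61), Itga8 and Frem1 at the bottom (-2.64 and -2.41 vertically), and integrin adaptors near the centre.

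Rat buds were compared with rat mesenchyme on each array design. Of the 5 probe sets 2 were tested, 1 on each of the first array and array B. Itga8, by probe set rc_AI059150_at on array B, read 21.6 and 37.3 in buds and 157 and 149 in mesenchyme. Both bud arrays lay far below both mesenchyme arrays, and the log2 difference was -1.91 (SE 0.20, limma adjusted p = 0.00238), called where 5.81% of 4666 tested probe sets were called and 2.74% were called lower. It passed the limit for testing through mesenchyme alone, and its bud mean lay above only 13.8% of the array's probe sets, so the size of the difference depends on the value added before the log. It was -2.39 with 1 added and -1.22 with 64 added. Without the second bud array, whose Gapdh ratio was 5.28, it was -2.17, and without the first it was -1.66, with the lone bud array then taken to vary like the mesenchyme pair. In mouse the mean of tips and stalks minus mesenchyme was -1.78 for Itga8 1454966_at (limma adjusted p = 2.04e-05), where 4.64% of probe sets were called. It joins -3.10 in tips with -0.46 in stalks, the latter not called. The 2 species were measured on different arrays and the difference between them was not tested. Their pools were also unlike. Stromal marker sums were lower in rat buds than in rat mesenchyme. In mouse they were below those of mesenchyme in tips but not in stalks. For the mean of tips and stalks minus mesenchyme 3 of 5 stromal markers were called lower (list median -1.47). On the first rat array 3 of 3 tested were called lower (list median -1.92).

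The other rat probe set of Itga8, rc_AI639291_at on the first array, read 52.7 and 62.9 in buds and 65.0 and 69.2 in mesenchyme, under the limit for testing. The 2 rat Itga8 probe sets thus differed in range, as those of mouse Npnt did. Itgb1, by rc_AI177366_at, read 1365 and 1356 in buds and 1548 and 1674 in mesenchyme. Its difference of -0.24 (95% interval -0.54 to 0.06, limma adjusted p = 0.282) was not called, where 5.79% of 4626 tested probe sets were called, and it ran between -0.30 and -0.18 with 1 array left out and was -0.24 without the second bud array. Grip1 (U88572_at) read 16.4 and 16.3 in buds and 14.9 and 17.8 in mesenchyme, and Fras1 (rc_AI008494_at) 41.1 and 43.1 in buds and 38.9 and 43.1 in mesenchyme. Neither was tested, and for both the arrays of the 2 tissues overlapped.

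**Figure D4:**
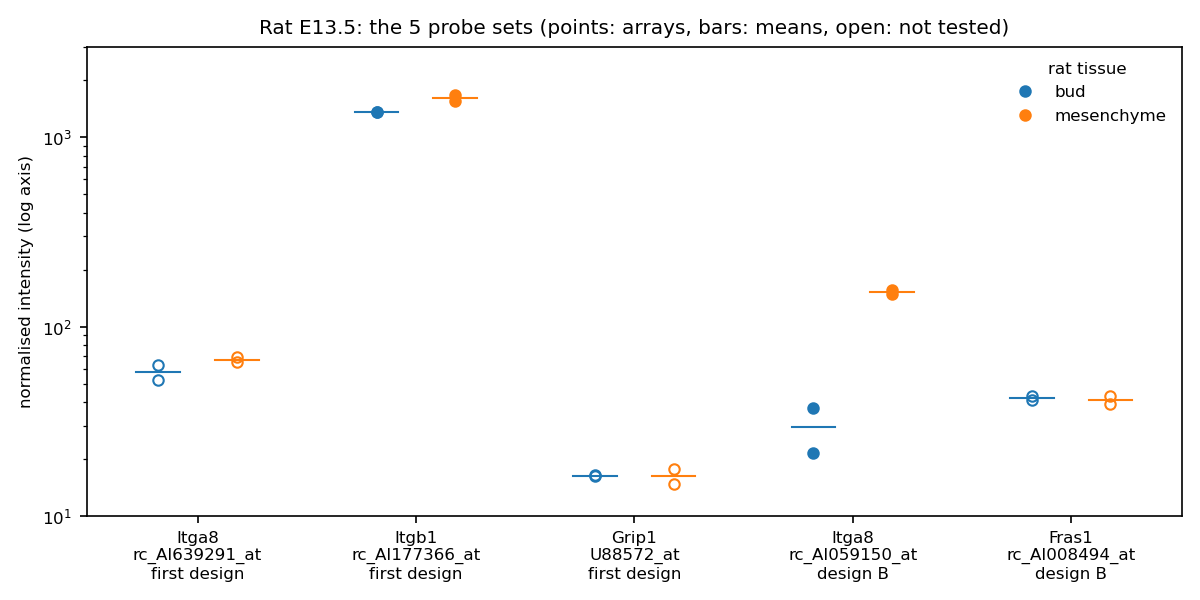
Normalised intensity (log axis) of the 5 rat probe sets in bud and mesenchyme; points are the 2 arrays of a tissue, bars are means and open points mark probe sets that were not tested. Itga8 on array B is 21.6 and 37.3 in buds and 149 and 157 in mesenchyme, and the tissues lie close together for the others.

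Of the same lists, the rat arrays held fewer genes. On the first array 4 of the 6 matrix ligands were tested, 0 called higher and 1 lower, where 5.79% of all tested probe sets were called. Fn1 was the lower one, with means of 486 in buds and 1515 in mesenchyme (log2 -1.62, limma adjusted p = 0.00143, and -1.79 without the second bud array). Of the alpha subunits 1 was tested on each of the first array and array C. On array C it was Itga6, called higher with 150 in buds and 48.4 in mesenchyme (log2 1.36, adjusted p = 0.00764, and 1.52 without the second bud array), where 4.64% of 4660 tested probe sets were called. Itga6 passed the limit for testing through buds alone.

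Of the 15 adaptors and kinases 4, 8 and 5 were tested on the first array, array B and array C, and 0 were called by limma on each. Their list medians were 0.11, -0.15 and 0.05, against 0.02, -0.02 and -0.01 for all tested probe sets. At an unadjusted p under 0.05 there were 0, 3 and 1 of them, where 26%, 33.1% and 28.9% of all tested probe sets had one. On the list of Gdnf axis genes and mesenchyme regulators, 6 were tested on the first array, 2 called higher in buds and 1 lower. There 5.79% of all tested probe sets were called. Ret (log2 3.52) and Gfra1 (log2 1.44) were the higher ones, at 3.23 and 1.23 without the second bud array, and Wt1 was the lower one (log2 -2.6, and -2.5 without that array). On array B 3 were tested, 1 called higher and 2 lower, where 5.81% of all tested probe sets were called. Wt1 and Hoxa11, both transcription factors of the mesenchyme, were the lower ones (log2 -3.85 and -2.55), at -3.92 and -2.55 without the second bud array. Both passed the limit for testing through mesenchyme alone, as Wt1 also did on the first array. Bmp7 was the higher one (log2 1.12, and 1.03 without the second bud array), while on the first array its difference of 0.36 was not called. That difference was 0.67 without the second bud array of the first design. On array C 1 was tested, Bmp4, called lower with 17.4 in buds and 148 in mesenchyme (log2 -2.29, and -2.44 without the second bud array). There 4.64% of all tested probe sets were called. Bmp4 passed the limit for testing through mesenchyme alone.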

How the data were processed

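The authors deposited 1 linear intensity per probe set and array, from Affymetrix targets made from 1 µg of total RNA per the labels' protocols. How they were summarised and scaled is not given in the sources used here. Quantile normalisation was added within each of the 4 tables because the trimmed means of their arrays differed by 2.44% to 10.4%, and control probe sets were then left out. Differences were fitted with limma 3.58.1 in R 4.3.3 (lmFit, then eBayes with an intensity trend) on log2(intensity + 16), with the 6 mouse arrays in 1 fit and each rat table alone, giving 7 comparisons. The fit was tested on simulated data. The members, lists and rules were chosen with earlier results of these data known. Every probe set of the 7 genes is given. Of each list, up to 4 called genes with the largest difference are named, and for each called member the 3 genes of nearest profile. Probe set symbols came from the platform annotation, and all 7 genes matched a RefSeq promoter by symbol. The alternatives were the values as deposited, other pseudocounts, no low-value filter, no intensity trend, adjusted p alone, gene means, a replicate block and leaving out each array.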

Additional observations from a re-analysis of the deposited data

How the results depend on the processing

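Of 92 recomputed counts of called probe sets, 87 stayed within 1.5 times the reported count. That number includes array C, which held 0 of these probe sets, so its counts were 0 in advance. The first rat array and array B each had 1 tested probe set in the reported fit, so their counts also say little about stability. With all probe sets of a gene averaged, so that genes are counted, 3 were called for tips minus stalks, 4 for tips minus mesenchyme and 3 for the mean of tips and stalks minus mesenchyme. The like counts, genes with a called probe set in the reported fit, were 4, 5 and 4. By adjusted p alone, 11 were called for tips minus stalks and 6 for stalks minus mesenchyme. Leaving out each array in turn gave 8 to 10 calls for tips minus mesenchyme, 6 to 6 for tips minus stalks, 3 to 3 for stalks minus mesenchyme, 7 to 7 for the mean of tips and stalks, and 0 to 0, 1 to 1 and 0 to 0 on the first rat array, array B and array C. A tissue left with 1 array is then assumed to vary like the others, and without the first tip array 1421429_a_at fell below the limit for testing. With the replicate number as a block, counts were 6, 8, 3 and 7 in mouse (tips minus stalks, tips minus mesenchyme, stalks minus mesenchyme, mean of tips and stalks) and 0, 1 and 0 in rat, and no call changed. Deviations of same-numbered arrays correlated at r = 0.221 to 0.566, and the labels do not say what a number shares.

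Signs turned only among differences that were not called. For stalks minus mesenchyme, Grip1 1421350_a_at became -0.01 on the deposited scale and ran between -0.09 and 0.10 with 1 array left out (-0.03 without stalk array 2, -0.09 without mesenchyme array 2), Itgb1 1427771_x_at became 0.02 on the deposited scale, and Itgb1 1452545_a_at ran between -0.01 (without stalk array 2) and 0.10. For the mean of tips and stalks minus mesenchyme, Itgb1 1426918_at ran between -0.10 and, without mesenchyme array 1, 0.01. Adding 64 ended 3 calls, Npnt 1426561_a_at for tips (0.90) and for the mean of tips and stalks (0.66) minus mesenchyme and Fras1 1439019_at for that mean (0.97). Adding 1 brought calls for Npnt 1426560_a_at in tips minus mesenchyme (1.12) and 1426561_a_at in stalks minus mesenchyme (1.07).

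Over all probe sets, adding 64 gave 671 calls against 1098 for tips minus stalks, 1266 against 1954 for tips minus mesenchyme, 392 against 663 for stalks minus mesenchyme, 658 against 1112 for the mean of tips and stalks and 172 against 271 on rat array B. Adjusted p alone gave 6843, 8065, 3130 and 5992 in mouse, in that order, and 538, 816 and 523 on the rat arrays. Gene means gave 461, 887, 317 and 496 in mouse, and 144, 146 and 109 in rat. Without the first bud array the first rat design gave 477 calls against 268 and array C gave 360 against 216, and array C gave 76 and 82 without the first and the second mesenchyme array. The causes of these changes were not tested. Low signal limits the 4 mouse and 3 rat probe sets that were not tested.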
